A study of Rattus norvegicus with 2 samples.

Results

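The genes *Ier3*, *Birc3*, *Birc2*, *Cflar*, *Traf1*, *Bcl2l1*, *Mcl1*, *Gadd45a* and *Gadd45b*, grouped here as survival genes linked to NF-κB, were followed in neonatal rat heart cells given lipopolysaccharide (LPS) or saline. They were chosen by symbol, and 8 of the 9 were measured among 25399 Ensembl gene identifiers. *Mcl1* was not analysed here. Both groups were heart cells of Sprague-Dawley rats aged 1 to 3 days, and rats of both sexes were used. The tissue was digested with trypsin, and the cells were run on a Percoll gradient to enrich intrinsic cardiac adrenergic (ICA) cells. They were then plated and cultured before treatment. One group was given LPS at 1 µg/mL for 2 h, and the control group was given saline for 2 h. Each group was 1 single-cell library of the 10X Genomics 3′ kind, so there were no replicates, no test of the treatment was made and no p-value is given.

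NF-κB is a family of transcription factors that inhibitor proteins hold in the cytoplasm. LPS, a wall component of Gram-negative bacteria, acts through Toll-like receptor 4 and leads to the breakdown of these inhibitors, after which NF-κB enters the nucleus and switches on inflammatory genes together with genes that keep the cell alive. The survival genes act at successive steps: *Birc2* and *Birc3* encode cIAP1 and cIAP2, ubiquitin ligases bound to the TNF receptor complex, *Traf1* encodes an adaptor of that complex, *Cflar* encodes c-FLIP, an inhibitor of caspase-8, and *Bcl2l1* and *Mcl1* encode Bcl-xL and Mcl-1, which guard the mitochondrial membrane. *Ier3* encodes a short-lived protein made soon after stress or cytokines, and *Gadd45a* and *Gadd45b* encode small stress sensors that bind kinases of the p38 and JNK pathways.

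Promoters of members, as RefSeq gives them on the rat assembly GRCr8 from 250 bases before to 50 bases after the start of the gene, were read for 7 of the 9 symbols. The table held no entry for *Ier3* and *Birc3*, and since RefSeq also lists *Birc2* as an older name of *Birc3*, the *Birc2* entry rests on a match by symbol. The promoters of *Traf1* and *Birc2* are shown because both genes were higher after LPS and both hold an AP-1 motif (TGANTCA, searched on both strands), which stands in capitals, and that of *Gadd45a* is shown because this gene was higher in some clusters of cells and lower in others.
*Traf1*, chr3:38635721-38636020, minus strand, 5′ to 3′: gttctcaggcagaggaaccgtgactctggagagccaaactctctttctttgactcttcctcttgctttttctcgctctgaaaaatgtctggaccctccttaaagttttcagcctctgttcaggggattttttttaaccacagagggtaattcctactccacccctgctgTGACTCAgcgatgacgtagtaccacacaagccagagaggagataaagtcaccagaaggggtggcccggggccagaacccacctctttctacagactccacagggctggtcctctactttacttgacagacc
*Birc2*, chr8:13271491-13271790, minus strand, 5′ to 3′: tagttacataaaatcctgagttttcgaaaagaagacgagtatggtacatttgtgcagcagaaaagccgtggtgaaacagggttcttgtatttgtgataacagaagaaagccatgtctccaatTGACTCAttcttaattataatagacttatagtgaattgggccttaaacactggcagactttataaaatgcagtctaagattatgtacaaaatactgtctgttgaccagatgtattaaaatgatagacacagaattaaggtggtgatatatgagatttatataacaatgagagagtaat
*Gadd45a*, chr4:97486750-97487049, minus strand, 5′ to 3′: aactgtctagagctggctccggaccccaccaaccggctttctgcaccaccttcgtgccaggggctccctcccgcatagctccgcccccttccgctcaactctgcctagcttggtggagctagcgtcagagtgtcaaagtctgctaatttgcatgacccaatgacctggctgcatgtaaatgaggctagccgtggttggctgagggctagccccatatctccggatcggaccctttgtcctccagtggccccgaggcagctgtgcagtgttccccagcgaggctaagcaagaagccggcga

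The AP-1 motif lay 81 to 75 bases before the start of *Traf1* and 128 to 122 bases before that of *Birc2*. It was found in these 2 of the 7 members, whose entries numbered 10 since *Bcl2l1* had 4, and in 7.33% of 33469 rat promoters of the same length, counted per entry. *Cflar*, which was also higher after LPS, had an entry without the AP-1 motif. The κB consensus was found in the *Mcl1* entry alone among the 7, as GGAAACTCCC on the strand of the gene, the match being on the opposite strand, at 99 to 90 bases before the start, and in 4.18% of all promoters. The CRE motif (TGACGTCA) was in none of the 7 and in 1.83% of all promoters. These matches describe letters in a window and say nothing about binding.

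The control library held 11531 cells with a median of 12479 unique molecular identifiers (UMIs) per cell, and the LPS library 12689 cells with a median of 9432. The libraries shared 194 cell barcodes, 1.68% of the control and 1.53% of the LPS barcodes. The authors placed 11529 and 12681 of these cells in clusters, naming clusters 0, 1 and 7 fibroblast, 4 and 5 endothelial, 6 macrophages and 3 ICA and cardiomyocyte. Among the fibroblasts, cluster 1 was led by cell cycle genes (*Top2a*, *Cenpf*) and cluster 7 by interferon-response genes (*Mx1*, *Ifit3*). Cluster 2 was pericyte-like by *Rgs5*, *Kcnj8*, *Higd1b* and *Abcc9*, cluster 8 was mesothelial-like by *Upk1b* and *Msln*, and cluster 9, led by mitochondrial genes and *Myh6*, was given no name. The labels call the cells ICA cells, yet cluster 3 made up 7.25% of the control library and 7.33% of the LPS library. Of 7 listed ICA genes, 2 had at least 50 UMIs over both libraries in cluster 3, *Dbh* among them with 180 and 136 UMIs. *Th*, *Slc18a1* and *Chga* had 0 UMIs there in both libraries. A level is the sum of a gene's UMIs over the cells of a class per 1000000 UMIs of that class (CPM), and 95% intervals in parentheses cover counting error only. Mitochondrial UMIs count in that total. Their median share per cell was 17.9% in control and 17.3% in LPS cells of cluster 3, 14.0% and 12.6% in cluster 9, and 3.57% and 3.13% over all clustered cells. Levels of clusters 3 and 9 therefore read lower beside other clusters than they would without mitochondrial UMIs.

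LPS-treated cells carried more *Birc3*, *Traf1*, *Ier3*, *Cflar* and *Birc2* RNA than control cells, with *Birc3* at 39.8 against 2.37 CPM, while *Bcl2l1*, *Gadd45a* and *Gadd45b* stayed within 2-fold over the whole libraries. All 8 members had at least 50 UMIs over both libraries, and 5 of 8 were at least 2-fold higher in the LPS library, where 3.37% of the 13228 genes with at least 50 UMIs were. None of the 8 was at or below 0.5 of the control level, where 8.13% of all genes were. The members were chosen with earlier results of these data known, so these counts describe the members and do not test them. The median log2 ratio was 1.25 over the members and -0.13 over all genes. That shift of the median gene below 0 was also seen in cluster 0 (-0.13), cluster 2 (-0.12) and cluster 6 (-0.30), so that a ratio of 1 there lay above the median gene. *Birc3* ranked among the highest 0.189% of all genes by its ratio, *Traf1* among the highest 1.29%, *Ier3* among the highest 1.74%, *Cflar* among the highest 1.98% and *Birc2* among the highest 3.18%.

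**Figure D1:**
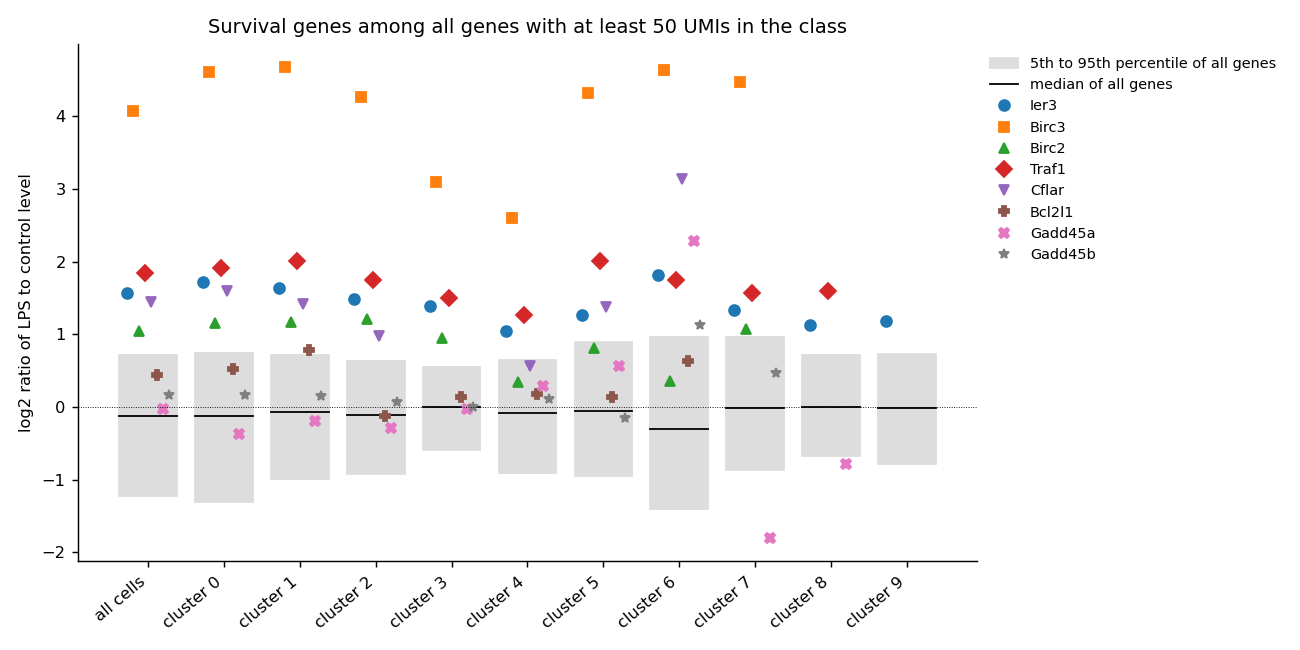
Log2 ratio of the LPS to the control level (y axis) of each member with at least 50 UMIs in a class, for all cells and clusters 0 to 9 (x axis), beside the 5th to 95th percentile (grey) and the median (black line) of all genes with at least 50 UMIs. *Birc3* stands highest in all cells and clusters 0 to 7, and *Gadd45a* lies at 2.28 in cluster 6 and at -1.80 in cluster 7.

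The inhibitor-of-apoptosis gene *Birc3* (ENSRNOG00000005731) was scarce in saline and had 361 UMIs there against 5082 after LPS, a ratio of 16.8 (15.1 to 18.8). In control cells its level was 12 CPM in the endothelial cells of cluster 4 and between 1.25 and 4.44 CPM in the other clusters from 0 to 9 in which it was seen. After LPS it was 72.9 CPM (67.7 to 78.5) in cluster 4, 55.9 in macrophages, 51.6 in the endothelial cells of cluster 5, 45.4 in cluster 7, 45.0 in cluster 2, 37.9 in cluster 0, 32.2 in cluster 9, 31.8 in cluster 1, 17.1 in cluster 8 and 14.4 (11.4 to 18.0) in cluster 3. Cluster 4 thus stood above macrophages, while the intervals of macrophages and clusters 5, 7 and 2 overlapped each with the next. The ratio was 25.4 (17.6 to 38) in cluster 1, 24.9 (11.8 to 63.0) in macrophages and 24.5 (20.7 to 29.2) in cluster 0, and 6.06 (5.03 to 7.34) in cluster 4, whose control level was the highest. It was 8.50 (4.61 to 17.1) in cluster 3, whose control level of 1.70 CPM was close to that of cluster 0. With each cell thinned to 3000 UMIs the log2 ratio was 5.76 in place of 4.64 in macrophages and 3.27 in place of 4.32 in cluster 5. These thinned values are loose, since *Birc3* UMIs were then in 1 control and 45 LPS macrophages. In cluster 5 they were in 6 and 65 cells. In cluster 8 no control UMI was seen and 18 LPS UMIs were. Their level was 6.35 times that of 3 UMIs in the control cells, and the lower limit of the ratio was 4.65. The interval of the ratio lay above 1 in each of clusters 0 to 9.

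Its neighbour in sequence, *Birc2* (ENSRNOG00000010602), differed far less. Its level was 16.4 CPM in control and 33.7 CPM in LPS cells, a ratio of 2.06 (1.96 to 2.17). Control levels ranged from 14.7 CPM (13.9 to 15.5) in cluster 0 to 25.4 CPM (20.1 to 31.6) in macrophages. Each neighbour in that order overlapped the next, but cluster 0 lay below macrophages and below cluster 4 at 24.6 CPM (21.8 to 27.7). After LPS all clusters but 8 lay between 29.4 and 39.3 CPM, again with overlapping neighbours, though cluster 1 (35.1 to 40.5) lay above cluster 0 (31.4 to 34.1). The interval lay above 1 in 7 of 10 clusters, with 2.23 (2.08 to 2.38) in cluster 0, 2.25 (2.00 to 2.55) in cluster 1, 2.31 (1.90 to 2.81) in cluster 2 and 1.26 (1.07 to 1.49) in cluster 4. In macrophages the ratio was 1.28 (0.931 to 1.77), so that a difference was not detectable at that depth. With each cell thinned to 3000 UMIs the log2 ratio there was 0.95 in place of 0.36, from only 11 control and 22 LPS cells with a UMI. Both genes are paralogs with a shared older name, and how the authors' counting treated reads shared between them is not given in the sources used here, so their values are kept by identifier.

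**Figure D2:**
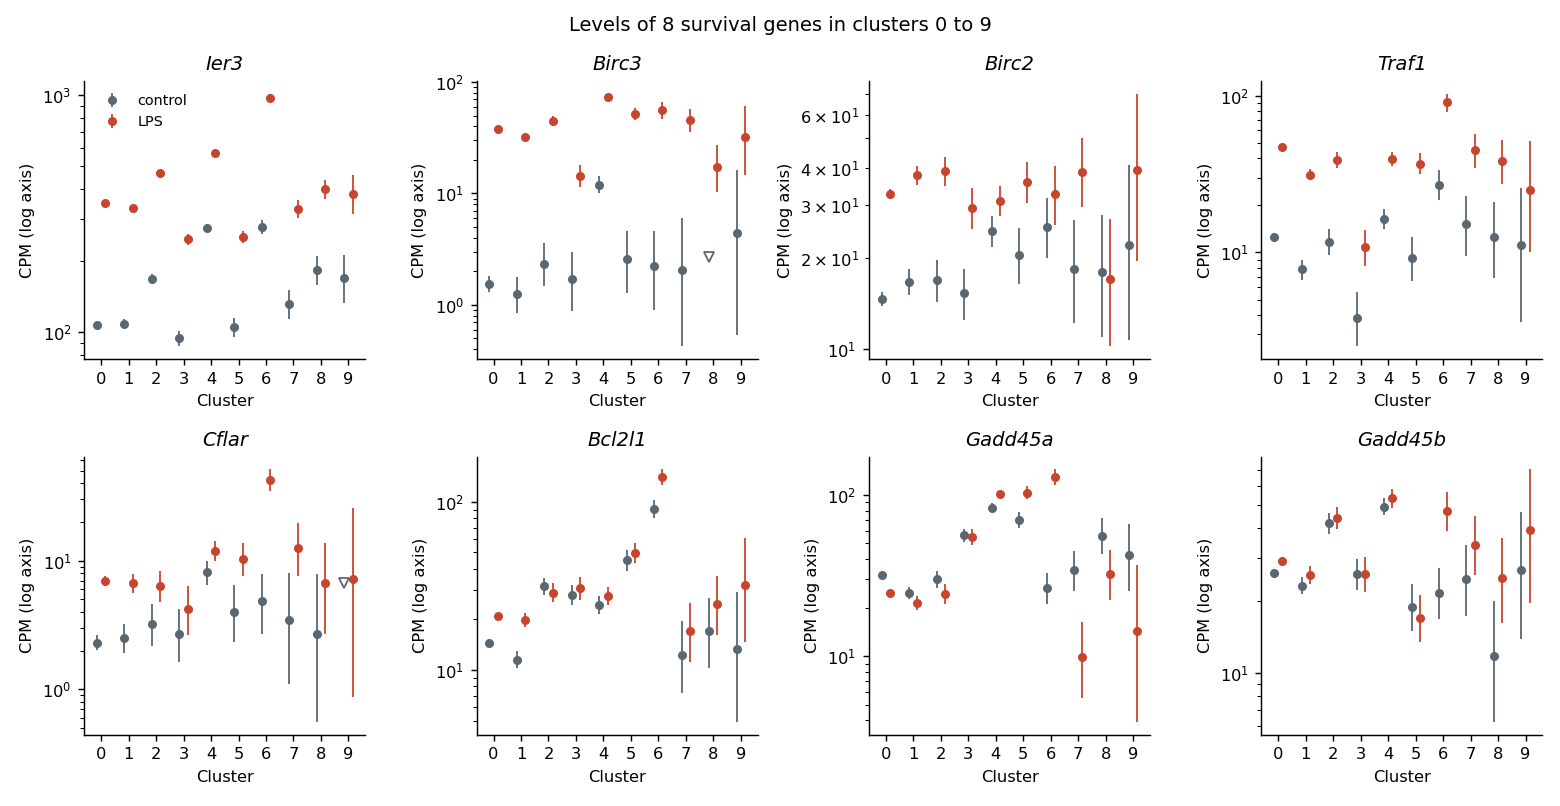
Levels in CPM (y axis, log scale) of the 8 measured genes in clusters 0 to 9 (x axis), for the control (grey) and LPS (red) library, with 95% Poisson intervals; an open triangle marks the level of 3 UMIs where none was seen. The LPS points of *Ier3* and *Birc3* lie above the control points in every cluster, and those of *Gadd45a* lie above in clusters 4, 5 and 6 and below in the others.

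*Traf1* (ENSRNOG00000048914) was counted 1806 times in saline and 5398 times after LPS, or 11.8 and 42.3 CPM. This made a ratio of 3.58 (3.39 to 3.77). Macrophages held the highest level in both libraries, at 27.0 CPM (21.5 to 33.4) in control and 90.5 CPM (79.1 to 103) in LPS cells, apart from the next cluster in each. Cluster 3 held the lowest, at 3.81 and 10.8 CPM, and the other clusters lay between 7.79 and 16.4 CPM in control and between 25 and 47.2 CPM in LPS cells. The ratio ranged from 2.25 in cluster 9 to 4.02 in clusters 1 and 5, and its interval lay above 1 in 9 of 10 clusters, cluster 9 being the exception with 5 and 7 UMIs. In cluster 3 the log2 ratio was 1.5 at full depth and 2.39 with each cell thinned to 3000 UMIs. The thinned value came from only 5 control and 27 LPS cells with a UMI.

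*Cflar* (ENSRNOG00000012473) had few UMIs, 448 and 1022, and its level was 2.94 CPM in control and 8.01 CPM in LPS cells, a ratio of 2.73 (2.44 to 3.06). The macrophages set themselves apart after LPS only, at 42.2 CPM (34.5 to 51.1) against 12.5 CPM or less in every other cluster. In control cells they held 4.82 CPM, with an interval that overlapped those of clusters 4 and 5. The macrophage ratio was 8.77 (5.08 to 16.2), from 15 and 105 UMIs, against 3.02 (2.56 to 3.56) in cluster 0 and 1.47 (1.11 to 1.96) in cluster 4, whose control level was the highest of all clusters at 8.09 CPM. When each cell was thinned to 3000 UMIs the log2 ratio was 2.00 in place of 3.13 in macrophages. It was 1.54 in place of 1.59 in cluster 0 and 1.26 in place of 0.56 in cluster 4. These point values lay closer together, but a *Cflar* UMI was then in only 8 control and 31 LPS macrophages. In cluster 4 it was in 14 and 36 cells. Such counts are too small to show whether the span between these clusters was smaller. In cluster 3, with 19 and 23 UMIs, *Cflar* did not reach the minimum of 50 UMIs.

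*Bcl2l1* (ENSRNOG00000007946) differed little between the libraries, with 18.8 CPM in control and 25.5 CPM in LPS cells and a ratio of 1.35 (1.29 to 1.42). Its level varied more between clusters than between libraries. Macrophages held 90.9 CPM (80.6 to 102) in control and 141 CPM (126 to 156) in LPS cells, above every other cluster in both libraries, and the endothelial cells of cluster 5 came next with 44.9 and 49.7 CPM. The remaining clusters lay between 11.5 and 31.6 CPM in control and between 17.1 and 32.2 CPM in LPS cells. The interval of the ratio lay above 1 in clusters 0 (1.43), 1 (1.71) and 6 (1.55, 1.32 to 1.82) and held 1 in the other 7.

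*Ier3* (ENSRNOG00000000827) had the most UMIs of the members, 19329 in saline and 48088 after LPS. Its level was 127 CPM in control and 377 CPM in LPS cells, and the ratio was 2.98 (2.93 to 3.03). In control cells macrophages at 277 CPM and cluster 4 at 275 CPM led with overlapping intervals, and the other clusters lay between 93.9 and 183 CPM. With LPS the macrophages stood alone at 974 CPM (936 to 1014), followed by cluster 4 at 569.9 CPM and cluster 2 at 468 CPM, and cluster 3 stood lowest at 246 CPM, overlapping cluster 5 at 253 CPM. All 10 clusters had an interval above 1, from 2.08 (1.99 to 2.17) in cluster 4 to 3.52 (3.26 to 3.81) in macrophages.

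More LPS than control cells had an *Ier3* UMI, and positive cells had more of them, measures that rise together as a level rises. When 3000 UMIs were drawn per cell, a depth that 75 clustered LPS cells did not reach, 28.8% (28 to 29.6) of control and 60.0% (59.2 to 60.9) of LPS cells had an *Ier3* UMI, and cells with one had 1.36 and 1.96 of them on average. In macrophages the shares were 51.2% and 83.1%, with 1.67 and 3.90 UMIs per positive cell. Without thinning, at median depths of 12481 and 9434 UMIs, the shares over all clustered cells were 67.5% and 87.2%. *Birc3* UMIs were in 0.694% of control and 10.9% of LPS cells after thinning (2.85% and 30.1% unthinned), with 1.00 and 1.09 UMIs per positive cell. In cluster 4 the thinned *Birc3* shares were 3.87% and 19.8%, and in macrophages 0.356% and 15.5%. No class of these cells is known to lack the members, so no background share from free RNA could be set beside these values.

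**Figure D3:**
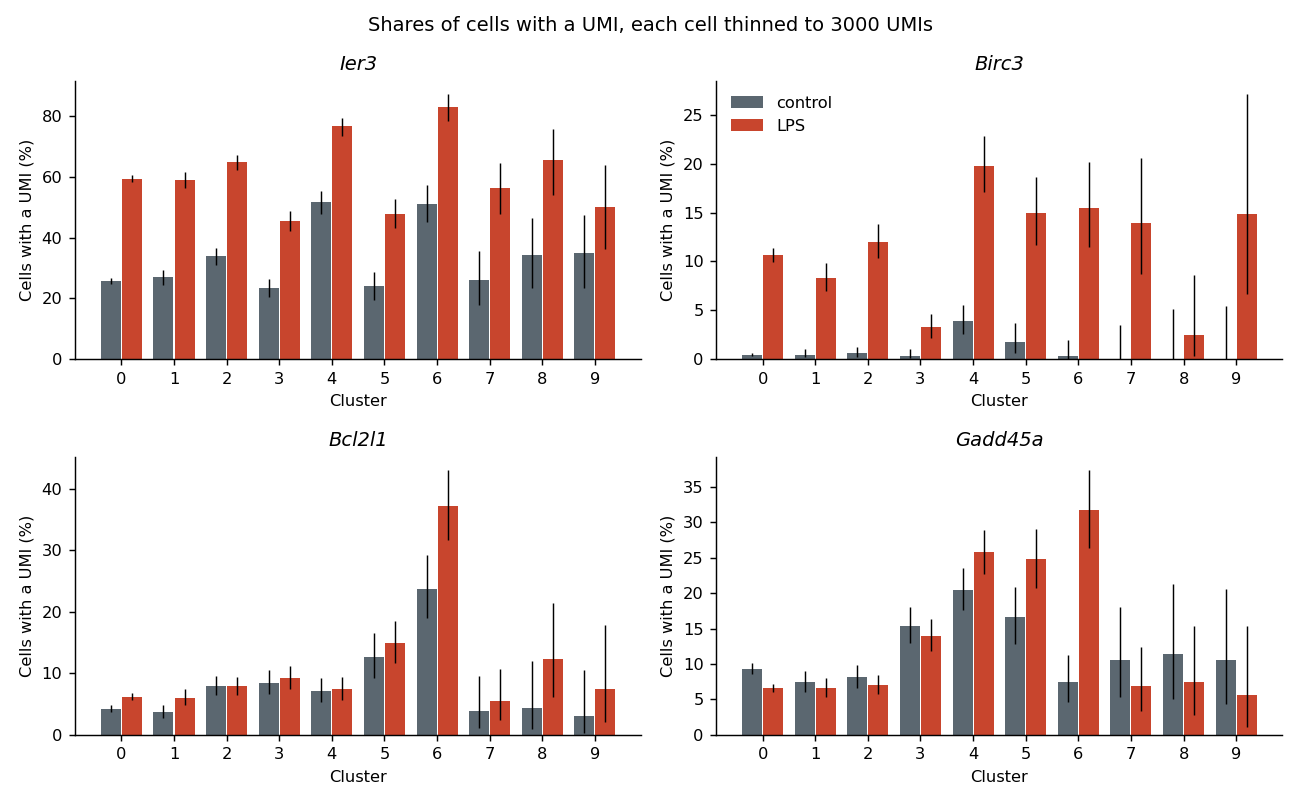
Share of cells with a UMI (y axis, percent) of *Ier3*, *Birc3*, *Bcl2l1* and *Gadd45a* in clusters 0 to 9 (x axis) after each cell was thinned to 3000 UMIs, in the control (grey) and LPS (red) library, with 95% Clopper-Pearson intervals. The *Ier3* bars go from 51.2% to 83.1% in cluster 6, and the *Gadd45a* bars from 7.47% to 31.7%.

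*Gadd45a* (ENSRNOG00000005615) was near level over the whole libraries, at 37.2 CPM in control and 36.3 CPM in LPS cells, a ratio of 0.976 (0.939 to 1.02) whose log2 of -0.03 became 0.10 when centred on the median gene. That value joined opposite directions in different cells. The interval lay below 1 in the fibroblasts of clusters 0 (0.773, 0.729 to 0.820), 1 (0.870, 0.766 to 0.986) and 7 (0.288, 0.150 to 0.521) and in clusters 2 (0.816, 0.678 to 0.981) and 8 (0.581, 0.370 to 0.896). It lay above 1 in the endothelial clusters 4 (1.22, 1.11 to 1.33) and 5 (1.47, 1.27 to 1.71) and in macrophages (4.85, 3.80 to 6.25), and held 1 in cluster 3 (0.979, 0.840 to 1.14) and cluster 9. Centred on the median gene, the log2 ratio kept its sign in clusters 0 to 6, but at -0.14 in cluster 1 and -0.17 in cluster 2 the shifted intervals no longer excluded the median gene. *Gadd45a* in clusters 0 to 5 lay within the 5th to 95th percentile of all genes by ratio. Genes with a ratio as high or higher made up 70.0%, 64.9% and 68.8% in clusters 0, 1 and 2. They made up 13.6% and 10.2% in clusters 4 and 5, 1.49% in macrophages, 99.5% in cluster 7 and 96.5% in cluster 8.

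With the macrophage change the order of the clusters changed too. Macrophages held 26.6 CPM (21.2 to 33.0) of *Gadd45a* in control, among the lower clusters and overlapping clusters 2 and 1, and 129 CPM (115 to 144) after LPS, above the next clusters 5 (103 CPM) and 4 (102 CPM). The share of macrophages with a *Gadd45a* UMI after thinning was 7.47% (4.69 to 11.2) in control and 31.7% (26.4 to 37.4) in LPS cells. In cluster 0 it was 9.33% (8.64 to 10.1) and 6.61% (6.04 to 7.21). In cluster 7 it was 10.6% (5.40 to 18.1) and 6.94% (3.38 to 12.4), with overlapping intervals. Over alternatives of scaling, cell filter and depth the macrophage log2 ratio ranged from 2.26 to 2.58. The counts in cluster 7 were small, with 50 UMIs over 104 control cells and 15 over 144 treated cells, and summed endothelial markers in that cluster were also lower in the LPS library, at 172 CPM in control and 63.2 CPM in LPS cells, with all 7 measured markers detected in both libraries. Their part in the *Gadd45a* value of cluster 7 was not tested.

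*Gadd45b* (ENSRNOG00000019822) had 27.9 CPM in control and 31.3 CPM in LPS cells, a ratio of 1.12 (1.08 to 1.17). Its ratio was 2.19 (1.61 to 3.00) in macrophages, from 21.5 to 47.1 CPM, and the interval lay above 1 also in cluster 0 (1.12, 1.06 to 1.19) and cluster 8 (2.12, 1.05 to 4.49, from 13 and 26 UMIs). In the other 7 clusters it held 1. Cluster 4 had the highest level in both libraries, 49.3 and 53.3 CPM, overlapping cluster 2 in control and macrophages in LPS cells.

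**Figure D4:**
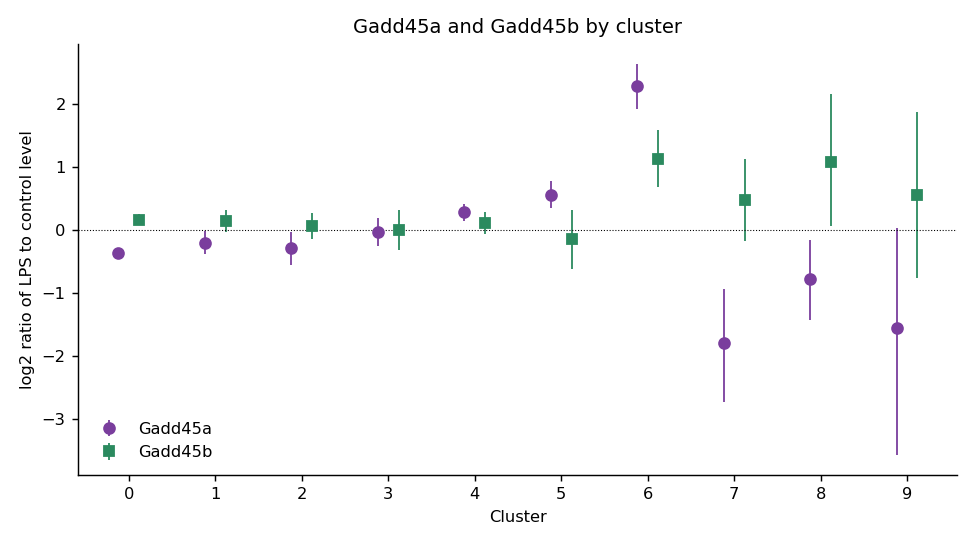
Log2 ratio of the LPS to the control level (y axis) of *Gadd45a* (circles) and *Gadd45b* (squares) in clusters 0 to 9 (x axis), with 95% exact intervals for counting error. *Gadd45a* goes from 2.28 in cluster 6 to -1.80 in cluster 7, and *Gadd45b* is above 0 with its interval in clusters 0, 6 and 8.

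By cluster, the counts of members called differed with the cells and with their depth. In cluster 0, 5 of 8 members were at least 2-fold higher in LPS cells, against 3.44% of all genes there, and 0 of 8 were at or below 0.5 of the control level, against 9.10%. In cluster 1 the higher members were 5 of 8 (3.23% of all genes), and in cluster 2 they were 4 of 8 (2.86%), *Cflar* lying just under at 1.97 (1.24 to 3.19). Endothelial cluster 4 had 3 of 8 higher (2.65% of all genes) and 0 of 8 lower (4.08%), and endothelial cluster 5 had 4 of 8 higher (4.24%). *Ier3*, *Birc3* and *Traf1* were among the members called in each of clusters 0 to 7, but *Ier3* in cluster 4 had a log2 ratio of 0.96, under 2-fold, without the 8% of cells with the most UMIs.

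Macrophages had the most members called, 6 of 8, where 4.82% of the genes were at least 2-fold higher. None of the 8 was at or below 0.5 of the control level, where 12.3% of all genes were. The 6 were *Birc3*, *Cflar*, *Gadd45a*, *Ier3*, *Traf1* and *Gadd45b*, and the median log2 ratio over the 8 members was 1.78 against -0.30 over all genes. *Birc2* was not called here. The macrophage cluster held 281 control and 291 LPS cells, and of its 10 macrophage markers 2 had a ratio with an interval above 1 and 5 one below 1, with *Cd14* called higher and *Csf1r* called lower and a median log2 ratio of -0.36. Their part in the member values was not tested.

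In cluster 3, the ICA and cardiomyocyte cells, 7 of the 8 measured members had at least 50 UMIs and 3 of these, *Ier3*, *Birc3* and *Traf1*, were at least 2-fold higher, where 1.70% of the genes were. Lower members were 0 of 7, against 1.69% of all genes. *Birc2* lay just under 2-fold at 1.93 (1.5 to 2.48), and *Bcl2l1*, *Gadd45a* and *Gadd45b* were at 1.10, 0.979 and 1.00 with intervals that held 1. The 156 control and 121 LPS cells of cluster 3 with a *Dbh* UMI, *Dbh* encoding the noradrenaline-forming enzyme, had an *Ier3* level of 95.7 CPM in control and 258 CPM in LPS cells, a ratio of 2.70 (2.16 to 3.39). In the other 680 and 808 cells of the cluster the ratio was 2.61 (2.36 to 2.90), so that the intervals overlapped. *Birc3* had 2 and 9 UMIs in the *Dbh*-positive cells, a ratio of 9.10 (1.88 to 86.5), and *Ier3* was the only 1 of the 5 members with at least 50 UMIs there that was 2-fold higher, where 1.09% of all genes were. *Gadd45a* was at 1.25 (0.850 to 1.82) in these cells. The split by *Dbh* used unthinned counts, and the median depth of the *Dbh*-positive cells was 8200 UMIs in control and 5379 in LPS cells. *Dbh* also had at least 50 UMIs in the fibroblasts of cluster 0, so a *Dbh* UMI alone does not identify an ICA cell.

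Smaller clusters gave counts for fewer members. In cluster 7, 4 of the 6 members with at least 50 UMIs were at least 2-fold higher (4.70% of all genes), and *Gadd45a* was the 1 member at or below 0.5 of the control level (3.45% of all genes). In mesothelial-like cluster 8, *Ier3* and *Traf1* were higher, 2 of 3 members with enough UMIs (2.48% of all genes). In cluster 9 *Ier3* was the only member with enough UMIs and was higher, 1 of 1 (2.69% of all genes). Cluster 10, with 16 control and 26 LPS cells, was left out of the counts and of the ranges and orders of levels above. It held the highest *Gadd45a* levels, 479.8 CPM in control and 226 CPM in LPS cells.

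Marker genes of other cell types were detected in each of clusters 0 to 9 and are given here beside the member levels. Whether this RNA was the cells' own was not tested. The 9 fibroblast markers stood in cluster 3 at 18.6 to 46.8% of their cluster 0 level in control and at 18.3 to 53.2% in LPS cells, with none at 0, and in macrophages at 28 to 42.6% and 22.7 to 35.8%. Among members, *Birc3* in LPS cells of cluster 3 was 38.1% (30.0 to 47.6) of its level in cluster 0, *Traf1* was 22.8% (17.3 to 29.5) and *Ier3* was 70.2% (66.4 to 74.1), so that the first 2 lay within the range of the fibroblast markers there and *Ier3* lay above it. The other members there were at 89.8% (*Birc2*), 60.2% with an interval of 37.8 to 91.4 (*Cflar*), 147% (*Bcl2l1*), 222% (*Gadd45a*) and 88.7% (*Gadd45b*). In control cells of cluster 3, *Birc3* was at 109.6% (55.3 to 198) of its cluster 0 level, from 12 UMIs. *Traf1* was at 30.4% (19.9 to 44.4) and *Ier3* at 88.1% (81.3 to 95.3). Of these only *Traf1* lay within the control range of the fibroblast markers. The part of fibroblast RNA in the cluster 3 values was not tested. In macrophages the LPS levels of *Ier3* (278%), *Birc3* (148%), *Traf1* (192%), *Cflar* (606%), *Bcl2l1* (677%), *Gadd45a* (521%) and *Gadd45b* (161%) were above those of cluster 0, and *Birc2* was at 99.6%. The 10 macrophage markers stood in the other clusters from 0 to 9 of the LPS library at 16.5% or less of their macrophage level, and at 2.96% or less outside clusters 5 and 9. Their part in the member levels there was not tested.

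Over the whole libraries, of 12 other protective genes, all with at least 50 UMIs, 3 were at least 2-fold higher (3.37% of all genes) and 0 lower (8.13%), and their median log2 ratio was 0.05 against -0.13 over all genes. *Tnfaip3*, encoding A20, a brake on NF-κB, had 21 control and 235 LPS UMIs, a ratio of 13.4 (8.56 to 22.0). Its partner *Tnip1* was at 3.83 (3.74 to 3.92), and the Bcl-2 relative *Bcl2a1* at 2.83 (2.70 to 2.97). *Sod2*, the mitochondrial superoxide dismutase, was at 1.78 in all cells, 2.47 in cluster 4 and 3.09 in macrophages. *Xiap*, which binds caspases directly, was at 0.591 (0.494 to 0.704). In macrophages 3 of 8 passing genes of this list were higher (4.82% of all genes), with *Tnip1* at 3.43, *Bcl2a1* at 3.21 and *Sod2* at 3.09, and 2 were lower (12.3% of all genes), *Gadd45g* at 0.396 (0.256 to 0.599) and *Tnfaip8* at 0.413 (0.268 to 0.622). The third *Gadd45* gene thus had a ratio below 1 in the cells where *Gadd45a* and *Gadd45b* had ratios above 2, and in cluster 0 *Gadd45g* was at 0.451 (0.422 to 0.482).

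Of 30 listed genes that promote cell death, 28 were measured (*Bbc3* and *Hrk* were not analysed here) and 26 passed, of which 3 were at least 2-fold higher (3.37% of all genes) and 2 at or below 0.5 (8.13% of all genes), with a median log2 ratio of 0.19. The lower count was near the share over all genes. The higher genes were *Fas*, a death receptor, at 3.65 (3.48 to 3.83), *Bok*, a Bcl-2 relative, at 2.85 (2.78 to 2.91) and *Bid*, which links caspase-8 to mitochondria, at 2.69 (2.49 to 2.90). The lower genes were the BH3-only genes *Bmf* at 0.238 (0.192 to 0.293) and *Bcl2l11*, encoding Bim, which Bcl-xL and Mcl-1 bind, at 0.470 (0.442 to 0.498). *Fas* was the gene of this list called in each of clusters 0, 3, 4 and 6, at 3.56, 3.24, 3.24 and 3.35. In macrophages 4 of 19 passing genes were higher (4.82% of all genes), with *Pmaip1*, encoding Noxa, which binds Mcl-1, at 2.92 (1.78 to 4.93) and the necroptosis kinase gene *Ripk3* at 2.71 (2.11 to 3.49), and 1 was lower (12.3% of all genes), the caspase-8 adaptor gene *Fadd* at 0.435 (0.235 to 0.768). Cluster 0 had 3 of 25 higher (3.44% of all genes) and 2 of 25 lower (9.10%), cluster 3 had 1 of 22 higher (1.70%) and cluster 4 had 2 of 24 higher (2.65%).

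A further list of 10 genes was grouped around the Gadd45 proteins and Mcl-1 and was not limited to direct binding partners. Of these, 0 were at least 2-fold higher (3.37% of all genes) and 1 was lower over the whole libraries (8.13%). The median log2 ratio was -0.14 against -0.13 over all genes, so that the list as a whole lay near the background. The lower gene was *Map2k6*, which encodes MKK6, an activating kinase of p38, at 14.5 CPM in control and 2.55 CPM in LPS cells, a ratio of 0.176 (0.156 to 0.198). It was called also in cluster 0 at 0.138 (0.115 to 0.166) and in cluster 4 at 0.194 (0.146 to 0.254), and was at 0.634 (0.389 to 1.01) in cluster 3. *Map3k4*, the kinase that Gadd45 proteins activate, was at 0.629 (0.578 to 0.684), and *Map2k7*, encoding MKK7, which Gadd45b inhibits, at 0.540 (0.356 to 0.805). In macrophages 4 of these genes passed and none was called. *Cdk1* was at 0.733 (0.478 to 1.11), *Usp9x* at 0.739 (0.556 to 0.978), *Pcna* at 0.868 (0.690 to 1.09) and *Cdkn1a* at 1.16 (1.06 to 1.26).

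**Figure D5:**
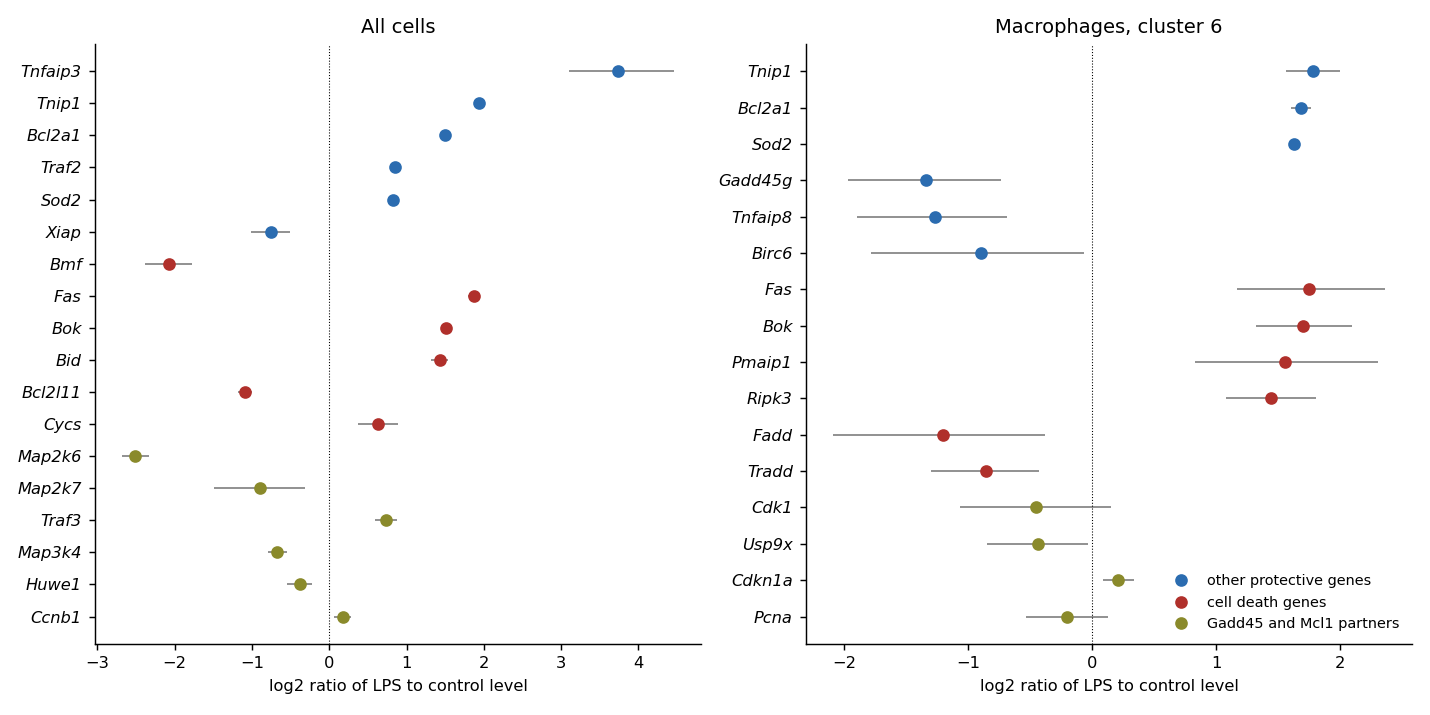
Log2 ratio of the LPS to the control level (x axis) for up to 6 genes of each other list with the largest absolute ratio (y axis), in all cells (left) and in macrophages (right), with 95% exact intervals for counting error and colours for the lists. *Tnfaip3* is highest at 3.74 and *Map2k6* lowest at -2.51 in all cells, and in macrophages *Tnip1* is highest at 1.78 and *Gadd45g* lowest at -1.34.

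As a description, the patterns most like each member were sought by Pearson's r of log2(CPM + 1) over 20 levels, those of clusters 0 to 9 in both libraries, among 9764 genes with at least 200 UMIs in each library. The points share their libraries, and a gene that differs between the libraries in most clusters will correlate with others that do. *Birc3* was closest to *Nfkbia* (r = 0.975), which encodes the inhibitor IκBα, then *Maff* (0.949) and *Nfkb2* (0.946). *Ier3* was closest to *Coq10b* (0.946), *Ptpn2* (0.940) and *Nfkb2* (0.921). *Birc2* was closest to *Irf1* (0.901), *Traf1* to *Ptpn1* (0.952) and the chemokine genes *Ccl2* (0.928) and *Ccl7* (0.927), and *Cflar* to *Slc25a25* (0.892). For the members that differed little over the whole libraries the closest genes were others, *Plek* for *Bcl2l1* (0.893), *Mtmr14* for *Gadd45a* (0.833) and *Lrrfip2* for *Gadd45b* (0.825).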

How the data were processed

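Single-cell libraries of 10X 3′ RNA were made from control and LPS cells, 1 per condition. The deposited values are raw UMI counts per gene and cell, made by the authors and not normalized. Per the labels, the submitters' processing notes name Cell Ranger 2.2.0 and Seurat 2.3.4; the genome build is not given in the sources used here. The clusters and cell type names are the authors' own, made with both libraries joined. Cells without a cluster (2 control, 8 LPS) were left out, and no other filter was applied to cells.

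UMI counts were summed per cluster and library and divided by the class total (Python 3.11.15, numpy 2.4.6, scipy 1.17.1, pandas 2.3.3, matplotlib 3.10.9). Levels have exact Poisson intervals, ratios exact conditional and shares Clopper-Pearson intervals, at 95%, all for counting error only. The control library held 152624585 and the LPS library 127580475 UMIs, which sets that precision. A gene was called at a ratio of at least 2, or of 0.5 or less, with at least 50 UMIs in the class. For medians and ranks over genes 0.5 UMI was added to each sum. Where no UMI was seen, the level of 3 UMIs served as a reference. The procedure was run on simulated Poisson counts, which held no added variation between cells or libraries. That run checked the calculation and not the results.

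All members were described in every class of at least 100 cells, and of each other list up to 6 genes with the largest absolute log2 ratio among those with at least 50 UMIs, in all cells and clusters 0, 3, 4 and 6. Clusters left unnamed by the authors were named from marker lists. The members and lists were chosen with earlier results of these data known. No doublet caller was run; leaving out the 8% of cells with the most UMIs was an alternative, beside other thresholds, scalings, thinning and pooled clusters. Promoters came from RefSeq (GRCr8), not from the counts' own annotation.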

Additional observations from a re-analysis of the deposited data

Results flagged for a closer look

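The ratio of the LPS to the control level of *Gadd45a* lay on opposite sides of 1 in different cells, at 4.85 (3.80 to 6.25) in the macrophages of cluster 6 and at 0.288 (0.150 to 0.521) in the fibroblasts of cluster 7. It stood out because each value met the 2-fold threshold in its own direction, from 83 and 321 UMIs in cluster 6 and from 50 and 15 UMIs in cluster 7. With 1 library per condition the difference between the clusters was not tested.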

How the results depend on the processing

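Alternative values were computed for all cells and clusters 0 to 6. None were computed for clusters 7 to 9 on their own, so the flagged *Gadd45a* ratio of cluster 7 was not rerun. Over 84 alternative values of the 8 counts of higher members, 75 stayed within 1.5 times the main count and 9 moved. At a fold threshold of 3 the count was 2 in place of 5 in all cells, 3 in place of 5 in cluster 1, 2 in place of 4 in clusters 2 and 5, and 1 in place of 3 in clusters 3 and 4. With a minimum of 200 UMIs it was 1 in place of 3 in cluster 3 and 3 in place of 6 in cluster 6, and with each cell thinned to 3000 UMIs it was 1 in place of 3 in cluster 3; these settings leave fewer UMIs or fewer genes past the minimum. Of 410 alternative values of 63 log2 ratios, 376 lay within the counting interval, 34 lay outside it and 0 of the called ratios changed direction. Below the threshold, *Gadd45a* in all cells went from -0.03 to 0.10 on centring, and *Gadd45b* in cluster 5 from -0.15 to 0.01 as the mean of the cells' own CPM and to 0.03 with the endothelial clusters pooled. With clusters 4 and 5 pooled, *Cflar* was at 0.71, against 1.37 in cluster 5 and 0.56 in cluster 4 alone. *Birc3* was then at 2.81, against 4.32 in cluster 5 and 2.60 in cluster 4 alone. No paired analysis was possible because there was a single library of each kind. For the same reason a difference between the libraries cannot be told apart from a difference in their handling. Depth limited *Cflar* in clusters 3 and 7 to 9 and *Bcl2l1* in clusters 7 to 9, where each had fewer than 50 UMIs. The same held for *Birc2*, *Birc3* and *Gadd45b* in clusters 8 and 9 and for *Traf1* and *Gadd45a* in cluster 9.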
